A study of Homo sapiens with 6 samples.

Results

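The genes described here encode the RNA polymerase I, II and III machinery: the subunits of the 3 nuclear RNA polymerases and the factors that load polymerase I onto ribosomal DNA and polymerase III onto its small genes. They were chosen by symbol alone, as every gene whose name begins POLR1, POLR2 or POLR3 followed by a letter, or GTF3A or GTF3C, together with TAF1A, TAF1B, TAF1C, TAF1D, UBTF, RRN3, CD3EAP, TWISTNB, ZNRD1, BRF1 and BRF2. This gave 48 of the 23228 genes in the count tables, and all 48 were among the 13408 genes that passed the filter on low counts.

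RNA-seq was done on HEC-1-A cells, an established line of human endometrial adenocarcinoma with epithelial character, with 3 control libraries and 3 libraries of cells that received SMIP34, a small molecule that binds the scaffold protein PELP1, at 20 µM for 24 h. All cells were grown in McCoy's 5A medium with serum. The study's methods call the control a vehicle, and the labels name only the medium. PELP1 works in the Rix1 complex, which takes part in maturation of the large ribosomal subunit, and the study asked how its inhibition bears on ribosome production. The labels do not say whether the libraries of a group came from separate cultures, so p-values here measure the spread between these libraries, which may be technical. In bulk RNA, fewer cells of a kind and less RNA per cell cannot be told apart.

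RNA polymerase I transcribes the large ribosomal RNA precursor in the nucleolus, RNA polymerase II transcribes protein-coding genes and many noncoding RNAs, and RNA polymerase III makes 5S ribosomal RNA, tRNAs and other small RNAs. Ribosome production therefore draws on all of them. Each enzyme has a pair of large catalytic subunits of its own, a set of small subunits found in all of them, and, for polymerases I and III, a pair of shared assembly subunits. Polymerase I is brought to ribosomal DNA by UBTF, by the TBP-containing SL1 complex, whose other subunits are TAF1A to TAF1D, and by RRN3, which links the enzyme to SL1. Polymerase III is brought to tRNA genes by the 6-subunit complex TFIIIC, encoded by GTF3C1 to GTF3C6, which recruits TFIIIB. At these genes TFIIIB is built around BRF1, and BRF2 is its counterpart at upstream-promoter genes. TFIIIA, encoded by GTF3A, adds the step that is particular to 5S genes.

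Total counts ran from 19562711 to 22014835 per library. The epithelial markers EPCAM, KRT8, KRT18, KRT19, CDH1 and PAX8 stood between 205 and 883 CPM (counts scaled to library size by TMM, per 1000000 counts) in every library, whereas of 11 stromal, immune and endothelial markers only COL1A1 exceeded 1 CPM in any library (2.71 to 4.53 CPM). No pair of libraries held the same counts. The mRNA of PELP1, whose product is the target of SMIP34, stood at 133, 146 and 138 CPM in the control libraries and 158, 159 and 151 CPM in the SMIP34 libraries. This mRNA was thus higher with SMIP34 (log2 fold change 0.16, SE 0.035, adjusted p = 0.000746, edgeR's quasi-likelihood test with Benjamini-Hochberg adjustment, used throughout). For the protein the study reports the opposite direction, a decrease on Western blots of endometrial cancer cells given SMIP34. RNA counts do not measure protein.

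Within several of these complexes some subunits rose and others fell, and the promoters of 7 such genes are shown because they belong to the polymerase I factors and to TFIIIC, where members of one complex moved in opposite directions. Each line gives the 150 bases before the first transcription start that RefSeq lists for the gene, read 5′ to 3′ on the gene's own strand, with positions in GRCh38.p14. Capitals mark any of 7 motifs that were searched on both strands: the E-box CACGTG, the TATA box TATAAA, the ETS core CCGGAA, the YY1 motif AAGATGGC, the NRF1 motif (the palindrome in capitals in the GTF3C1 window), the GC box GGGCGG and the CCAAT box CCAAT, where neighbouring matches may overlap. The first 3 genes act with polymerase I, and the last 4 are subunits of TFIIIC.
UBTF, chr17:44220883-44221032, minus strand: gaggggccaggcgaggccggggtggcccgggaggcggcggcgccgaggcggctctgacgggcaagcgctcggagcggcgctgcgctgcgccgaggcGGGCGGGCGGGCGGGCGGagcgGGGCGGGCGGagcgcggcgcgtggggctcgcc
TAF1C, chr16:84187058-84187207, minus strand: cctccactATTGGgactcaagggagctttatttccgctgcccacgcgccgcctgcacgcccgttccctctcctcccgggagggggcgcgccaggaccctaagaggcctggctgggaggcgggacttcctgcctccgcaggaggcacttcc
TAF1D, chr11:93741496-93741645, minus strand: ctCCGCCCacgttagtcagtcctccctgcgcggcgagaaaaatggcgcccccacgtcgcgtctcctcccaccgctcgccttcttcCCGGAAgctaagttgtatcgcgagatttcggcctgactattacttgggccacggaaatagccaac
GTF3C1, chr16:27549914-27550063, minus strand: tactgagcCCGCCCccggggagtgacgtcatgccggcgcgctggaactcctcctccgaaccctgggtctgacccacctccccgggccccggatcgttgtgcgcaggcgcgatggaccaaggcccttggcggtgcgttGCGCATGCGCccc
GTF3C4, chr9:132669885-132670034, plus strand: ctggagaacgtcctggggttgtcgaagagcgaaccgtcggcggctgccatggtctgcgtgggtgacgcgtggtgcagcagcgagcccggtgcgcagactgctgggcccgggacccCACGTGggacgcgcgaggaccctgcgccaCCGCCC
GTF3C2, chr2:27356765-27356914, minus strand: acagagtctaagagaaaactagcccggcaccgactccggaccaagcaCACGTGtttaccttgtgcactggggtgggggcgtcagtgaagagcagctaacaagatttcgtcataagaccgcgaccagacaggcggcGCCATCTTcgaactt
GTF3C6, chr6:110958556-110958705, plus strand: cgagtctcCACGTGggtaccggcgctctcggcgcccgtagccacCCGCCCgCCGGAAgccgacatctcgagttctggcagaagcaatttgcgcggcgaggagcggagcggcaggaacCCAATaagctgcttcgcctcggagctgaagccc

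Of the 48 genes, 37 had a promoter in the RefSeq table. The E-box, the letters bound by MYC and related factors, was found in 5 of these 37 windows against 4.68% of 27305 promoters, and 3 of the 5 were TFIIIC subunits: GTF3C4, which was higher with SMIP34, and GTF3C2 and GTF3C6, which were lower. The others were POLR3A, which was higher, and CD3EAP, which was not called. Whether the E-box bears on these changes was not tested. GC boxes were in 20 of the 37 (36.7% of all promoters), CCAAT boxes in 10 (24.4%), the ETS core in 12 (11.5%), the NRF1 motif in 3 (0.982%), the YY1 motif in 1 (0.835%) and the TATA box in 1 (7.05%). The UBTF window held 6 GC boxes and the TAF1C window held a CCAAT box and none of the other motifs. A match describes the letters in this window and is not a measured binding site. Promoters of POLR2K, POLR1E, POLR2G, POLR2I, POLR2J, POLR2J3, POLR2J4, POLR3D, POLR3G and BRF2, among others, were not used here.

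Levels were compared between genes as CPM per kb of exon (the merged exon length given in the count tables). The 5 subunits shared by all 3 polymerases were the most abundant group, with a control median of 98.2 CPM per kb, from 40.9 for POLR2K to 213 for POLR2L. The 10 genes named for polymerase II had a control median of 36.5 CPM per kb, whereas the 10 of polymerase III and the 6 of polymerase I had medians of 13.0 CPM per kb each. Among the largest catalytic subunits the order of the control levels was POLR2A at 15.8, POLR1A at 8.99 and POLR3A at 7.43 CPM per kb, and among the second-largest it was POLR2B at 42.8, POLR1B at 12.3 and POLR3B at 3.28. The polymerase II enzyme thus had the highest mRNA level for both catalytic subunits, and the polymerase III enzyme the lowest. GTF3A stood at 90.3 CPM per kb, the highest of the factors, and TAF1A at 4.26, the lowest. The plot of levels per length shows that SMIP34 and control values lay close to each other against this range.

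**Figure D1:**
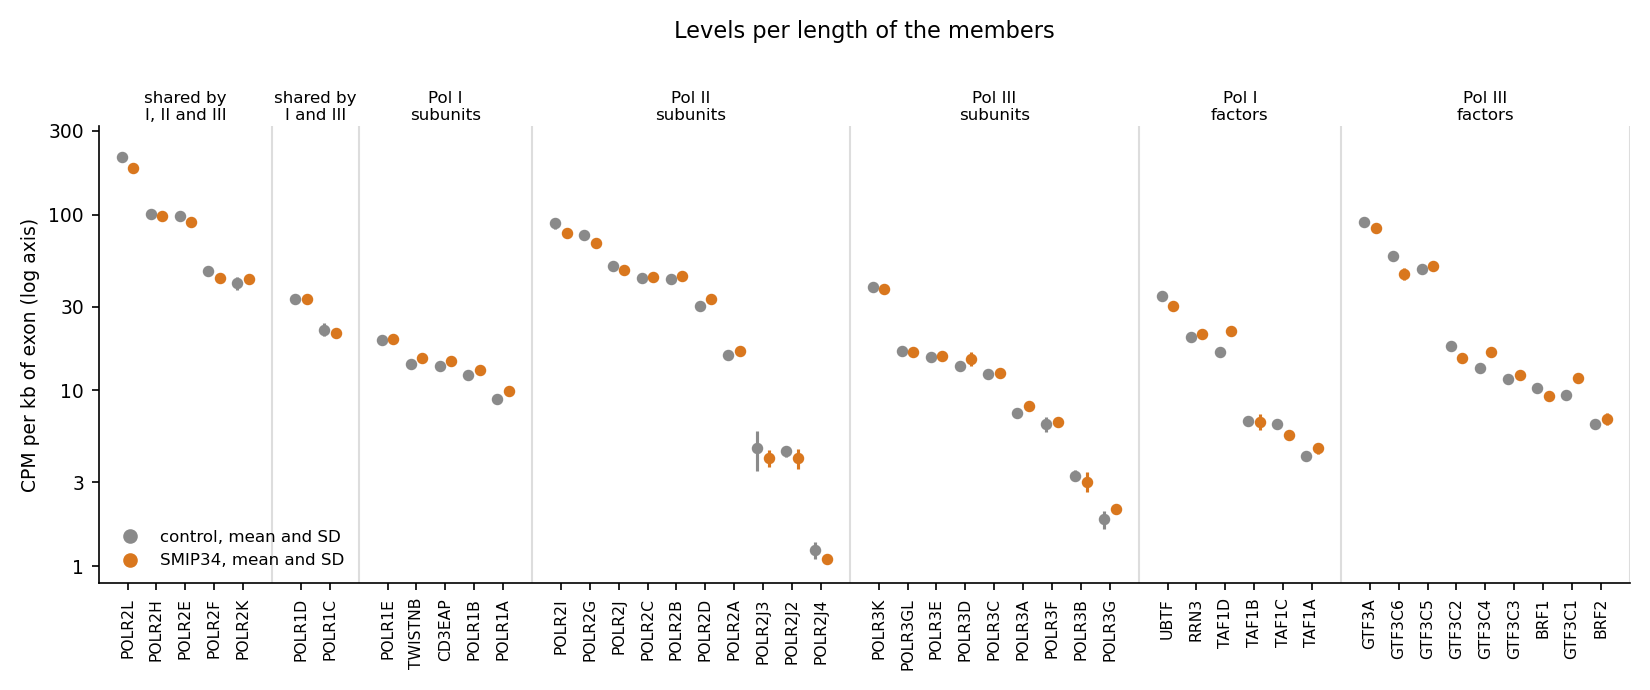
Mean level of 46 genes (ZNRD1 among those left out) as CPM per kb of exon on a log axis, in 3 control libraries (grey) and 3 SMIP34 libraries (orange), grouped by role, with SD bars that are often smaller than the points. The shared subunits reach 213 CPM per kb with POLR2L in the control, and POLR2J4 and POLR3G lie lowest.

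With SMIP34, 18 of the 48 genes passed an adjusted p of 0.05, against 34.6% of all genes tested. Of these, 6 were higher (17.4% of all genes tested were higher) and 12 were lower (17.2% were lower), so that 37.5% of the machinery was called, a share close to that of all genes. The genes that rose were POLR1A, POLR2D, POLR3A, TAF1D, GTF3C1 and GTF3C4, and those that fell included POLR2E, POLR2F, POLR2L, POLR2G, POLR2I, UBTF, TAF1C, GTF3A, GTF3C2, GTF3C6 and BRF1. The changes were small. Called log2 fold changes ran from -0.34 to 0.40, and the study's fold limit of 0.5 on the log2 scale, passed together with an adjusted p of 0.05 by 3.31% of all genes, was reached by 0 of the 48 genes with edgeR, DESeq2 or limma voom, whereas 23 had an unadjusted p under 0.05 (43.6% of all genes). With the replicate block ZNRD1 passed it. The median over the 48 genes was 0.006 and the median over all genes tested was -0.002. The values of the 3 control and 3 SMIP34 libraries did not overlap for 20 of the 48 genes, 9 with SMIP34 above and 11 below, against 44.5% of all genes tested (22.6% above and 21.9% below).

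**Figure D2:**
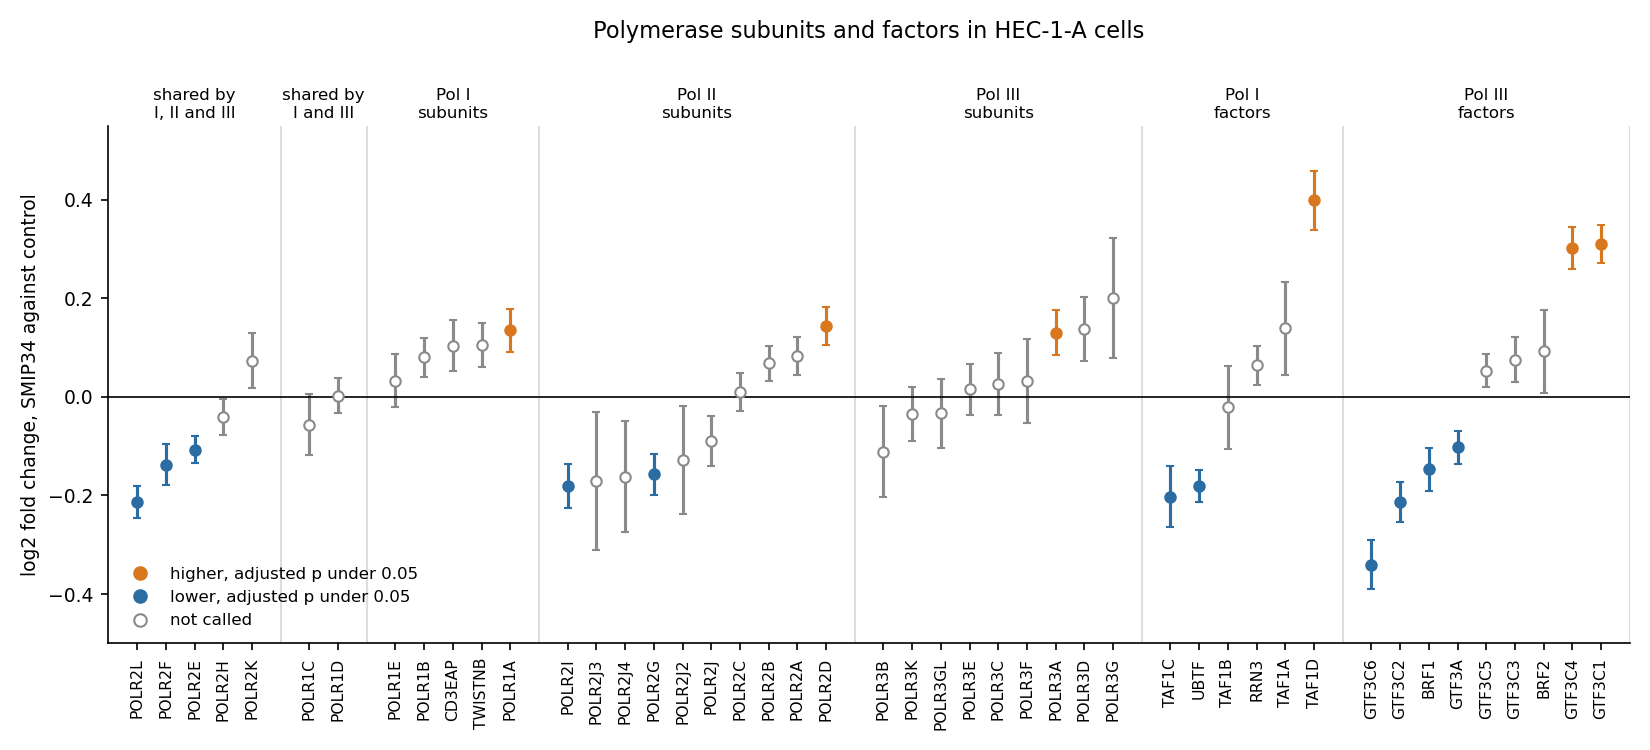
Log2 fold change with its SE for 46 genes in SMIP34 against control libraries (3 each), grouped by role, with filled points for genes past an adjusted p of 0.05 (orange higher, blue lower) and open points for the rest. ZNRD1, at -1.14, lies outside the axis and is left out, and called genes of both directions stand in the polymerase II group and in both factor groups.

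The medians of the polymerases lay on both sides of 0. The 6 polymerase I subunits had a median log2 fold change of 0.092, with 5 of 6 above 0 and 1 called (higher). For the 10 polymerase II genes the median was -0.11 (1 called higher, 2 called lower), and for the 10 polymerase III genes it was 0.021 (2 called). Of the 10 polymerase II genes, 3 are the POLR2J copies POLR2J2, POLR2J3 and POLR2J4, whose reads cannot be told apart with certainty, and without them the median of the other 7 was 0.010. The median of all 10 was -0.028 with length offsets and -0.036 without control replicate 1. The 5 shared subunits had a median of -0.11 with 3 lower, and neither of the 2 subunits shared by polymerases I and III was called. Among all genes tested, 17.4% were called higher and 17.2% lower, and groups of so few genes cannot be set apart from those shares by such counts. Summed over its members, polymerase I took 261 to 267 CPM in the control libraries and 274 to 285 CPM in the SMIP34 libraries. Polymerase II took 631 to 635 and 630.2 to 636 CPM, polymerase III 316 to 318 and 304 to 313 CPM, and the shared subunits 666 to 714 and 631 to 641 CPM. The summed levels thus lay apart, without overlap, upward for polymerase I and downward for polymerase III and the shared subunits, and overlapped for polymerase II. For polymerase III the sum fell although 6 of its 10 genes had log2 fold changes above 0 and 4 below. A sum is weighted to the abundant genes, so this fall does not give the direction of most polymerase III subunits. With library size alone in place of TMM, polymerase III overlapped, at 312 to 317 and 306 to 315 CPM, and polymerase II lay apart upward, at 624 to 631 and 634 to 639.6 CPM. These medians and sums are descriptions, and differences between the polymerases were not tested.

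Of the polymerase I subunits, the largest, POLR1A, which forms the catalytic core with POLR1B, rose. POLR1A stood at 60.1, 58.8 and 60.1 CPM in the control libraries and 65.8, 68.9 and 61.9 CPM in the SMIP34 libraries (log2 fold change 0.14, SE 0.043, adjusted p = 0.0165). All its SMIP34 values were above all control values. The call was lost without control replicate 2, SMIP34 replicate 1 or SMIP34 replicate 2 (adjusted p = 0.0598, 0.0504 and 0.132), and with offsets for exon length (adjusted p = 0.178). POLR1B had 66.1, 65.1 and 68.4 CPM in the control libraries and 70.8, 70.0 and 70.3 CPM in the SMIP34 libraries, and its log2 fold change of 0.080 did not pass (SE 0.039, adjusted p = 0.114) although the groups did not overlap. TWISTNB, a subunit of the polymerase I stalk, had a log2 fold change of 0.11 (adjusted p = 0.0658), CD3EAP 0.10 and POLR1E 0.033. CD3EAP and POLR1E form the subcomplex that acts in initiation and elongation. The pair POLR1C and POLR1D, assembly subunits of both polymerases I and III, had log2 fold changes of -0.056 and 0.003 (adjusted p = 0.528 and 0.961).

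ZNRD1, the small zinc-ribbon subunit of polymerase I, is annotated at chr6:30029036-30032686 of hg19 and on alternate haplotypes of that region, 8 places in all, and its level was too uneven to read. It had 0.309, 2.85 and 0.577 CPM in the control libraries and 0.410, 0.832 and 0.508 CPM in the SMIP34 libraries, so that control replicate 2 held most of its control reads. Its log2 fold change of -1.14 (SE 0.52) was not called (adjusted p = 0.0924), and it ran from -1.57 to 0.38 over the alternative settings. It became a call without control replicate 1 or 3 (adjusted p = 0.0140 and 0.0186) and with the replicate block (adjusted p = 0.0202). Over the 123 tested genes annotated at more than 1 place, the median ratio of the highest to the lowest control library was 1.57, against 1.09 for the other 13285 genes. The value of ZNRD1 is therefore uncertain. No other member was annotated at several places.

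Of the polymerase I factors, UBTF and TAF1C fell and TAF1D rose. UBTF (chr17:42282401-42298250 in hg19, the build of the count tables), the HMG-box protein that coats active ribosomal DNA, stood at 162, 163 and 171 CPM in the control libraries and 143, 145 and 148 CPM in the SMIP34 libraries (log2 fold change -0.18, SE 0.032, adjusted p = 8.15e-05). Every SMIP34 value was below every control value, and the call held in all 19 alternative settings. TAF1D (chr11:93469096-93474703), a subunit of SL1 whose introns host small nucleolar RNA genes, had 22.6, 21.0 and 21.7 CPM in the control libraries and 28.5, 28.3 and 29.1 CPM in the SMIP34 libraries (log2 fold change 0.40, SE 0.060, adjusted p = 8.96e-06). This was the largest increase in the machinery, and it also held in all 19 settings. TAF1C (chr16:84211453-84220676), another SL1 subunit, moved the other way, from 27.2, 28.4 and 25.3 CPM to 23.3, 23.0 and 24.1 CPM (log2 fold change -0.20, SE 0.062, adjusted p = 0.0122). Its call was lost without control replicate 2 (adjusted p = 0.0831). The remaining SL1 subunits TAF1A and TAF1B had log2 fold changes of 0.14 and -0.021 (adjusted p = 0.270 and 0.876), and TBP, the subunit that SL1 shares with TFIID and TFIIIB, had 0.012 (adjusted p = 0.914). RRN3 had 76.8, 76.6 and 71.8 CPM in the control libraries and 76.1, 81.1 and 78.3 CPM in the SMIP34 libraries, which overlapped (log2 fold change 0.064, SE 0.040, adjusted p = 0.225).

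The ratio of TAF1D to TAF1C counts, which does not depend on how libraries are scaled, was 0.828, 0.739 and 0.856 in the control libraries and 1.22, 1.23 and 1.21 in the SMIP34 libraries. TAF1D reads were thus fewer than TAF1C reads in each control library and more numerous in each SMIP34 library. The exon lengths differ, at 1311 bases for TAF1D and 4202 for TAF1C. Per kb of exon TAF1D was the higher in both groups. It stood at 16.6 against 6.42 CPM per kb in the control libraries and 21.8 against 5.58 with SMIP34. The ratio of UBTF to POLR1A counts was 2.69, 2.76 and 2.85 in the control libraries and 2.18, 2.11 and 2.40 in the SMIP34 libraries, lower in every SMIP34 library. In both ratios a gene called higher is set against a gene called lower, so the shift follows from those calls.

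Of the subunits shared by all 3 polymerases, POLR2L fell most. POLR2L (chr11:839721-842529, hg19), a small zinc-binding assembly subunit, had 188, 194 and 178 CPM in the control libraries and 162, 161 and 161 CPM in the SMIP34 libraries (log2 fold change -0.21, SE 0.033, adjusted p = 1.19e-05). The SMIP34 libraries lay within 1 CPM of each other and below every control library. The log2 fold change was smaller with length offsets (-0.12) and with length and GC offsets (-0.099). POLR2E, the shared subunit of the lower jaw, had 279, 288 and 277 CPM in the control libraries and 264, 262 and 258 CPM in the SMIP34 libraries (log2 fold change -0.11, SE 0.028, adjusted p = 0.00388), again without overlap. Both calls held in all 19 alternative settings. POLR2F also passed (log2 fold change -0.14, SE 0.042, adjusted p = 0.0118), but its groups overlapped, and the call was lost without control replicate 1, control replicate 2 or SMIP34 replicate 3 (adjusted p = 0.0686, 0.0999 and 0.0750) and with length offsets (0.0645). POLR2H and POLR2K had log2 fold changes of -0.041 and 0.073 (adjusted p = 0.426 and 0.331).

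The catalytic subunits of polymerase II showed values that overlapped between the groups. POLR2A, which carries the C-terminal domain of heptad repeats, had 104, 106 and 109.8 CPM in the control libraries and 119.9, 112 and 108 CPM in the SMIP34 libraries (log2 fold change 0.084, SE 0.038, adjusted p = 0.0927). Without control replicate 3 or SMIP34 replicate 3 it became a call (adjusted p = 0.0375 and 0.0375). POLR2B had 166, 151 and 165 CPM in the control libraries and 164, 169.8 and 171 CPM in the SMIP34 libraries (log2 fold change 0.068, adjusted p = 0.136).

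The stalk of polymerase II, made of POLR2D and POLR2G, had partners that moved in opposite directions. POLR2D (chr2:128603840-128615729, hg19) had 69.7, 70.1 and 70.0 CPM in the control libraries and 77.0, 75.2 and 79.6 CPM in the SMIP34 libraries (log2 fold change 0.14, SE 0.038, adjusted p = 0.00479), with every SMIP34 value above the control values. POLR2G had 63.4, 65.9 and 62.7 CPM in the control libraries and 59.3, 56.5 and 56.4 CPM in the SMIP34 libraries (log2 fold change -0.16, SE 0.042, adjusted p = 0.00458), with every SMIP34 value below. POLR2D was called in all 19 alternative settings, whereas POLR2G was lost with length offsets (adjusted p = 0.292). POLR2I, a zinc-ribbon subunit involved in start site choice and transcript cleavage, fell most of the polymerase II subunits, from 77.1, 84.0 and 72.4 CPM to 67.8, 69.7 and 68.7 CPM (log2 fold change -0.18, SE 0.045, adjusted p = 0.00258), and its call was also lost with length offsets (0.109). POLR2C, the partner of POLR2J in the assembly platform, had a log2 fold change of 0.010 (adjusted p = 0.871).

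POLR2J has near-identical copies on chromosome 7, POLR2J2, POLR2J3 and the POLR2J4 pseudogene, and their counts were often not whole numbers because reads that map to more than one place, or overlap more than one gene, were divided. The single values are uncertain for that reason. POLR2J had 48.8, 53.8 and 47.4 CPM in the control libraries and 45.7, 49.1 and 46.3 CPM in the SMIP34 libraries (log2 fold change -0.089, adjusted p = 0.178). Its copies stood between 5.93 and 9.94 CPM in every library, with log2 fold changes of -0.13, -0.17 and -0.16 that did not pass (adjusted p = 0.399, 0.376 and 0.282). Summed over the 4 genes, the level was 72.7 to 76.8 CPM in the control libraries and 68.1 to 70.0 CPM in the SMIP34 libraries, without overlap. The sum does not depend on how reads were divided among the 4 genes. It still depends on reads divided with other places or genes, since the summed counts were not whole.

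Of the polymerase III subunits, POLR3A rose. POLR3A, the largest catalytic subunit, had 49.8, 46.8 and 51.3 CPM in the control libraries and 52.7, 54.1 and 55.1 CPM in the SMIP34 libraries (log2 fold change 0.13, SE 0.046, adjusted p = 0.0276). That call was lost without control replicate 2, SMIP34 replicate 2 or SMIP34 replicate 3 (adjusted p = 0.162, 0.0727 and 0.101), with DESeq2 (0.0829) and with length offsets (0.236). The second-largest subunit, POLR3B, had 15.1, 15.0 and 13.3 CPM in the control libraries and 11.4, 14.9 and 13.8 CPM in the SMIP34 libraries (log2 fold change -0.11, adjusted p = 0.378).

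POLR3G and POLR3GL encode alternative forms of the same subunit, the former known from pluripotent and tumour cells and the latter present in most tissues. POLR3GL was the more abundant, at 16.9 CPM per kb in the control libraries against 1.86 for POLR3G. POLR3G had 6.90, 5.56 and 5.82 CPM in the control libraries and 6.43, 7.31 and 7.21 CPM in the SMIP34 libraries (log2 fold change 0.20, SE 0.12, adjusted p = 0.213), and POLR3GL had 21.1, 18.99 and 18.8 CPM in the control libraries and 19.6, 18.3 and 19.5 CPM in the SMIP34 libraries (log2 fold change -0.034, adjusted p = 0.754). Neither passed the test. POLR3C and POLR3F, which bind this subunit, had log2 fold changes of 0.026 and 0.032. POLR3D and POLR3E, which form the heterodimer used in initiation and termination, had 0.14 and 0.016, and POLR3K, the subunit for transcript cleavage, had -0.034. None of these 5 passed the test, and their adjusted p ran from 0.107 for POLR3D to 0.849 for POLR3E.

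Of the 9 polymerase III factors 2 were higher and 4 lower, against 17.4% and 17.2% of all genes. GTF3C1 (chr16:27471934-27561251 in hg19), the largest TFIIIC subunit, which contacts the B box of tRNA genes, had 65.1, 67.4 and 69.6 CPM in the control libraries and 82.2, 83.7 and 84.9 CPM in the SMIP34 libraries (log2 fold change 0.31, SE 0.039, adjusted p = 5.87e-07). GTF3C6 (chr6:111279763-111289091), the smallest TFIIIC subunit, had 56.0, 56.3 and 54.0 CPM in the control libraries and 40.1, 45.0 and 46.3 CPM in the SMIP34 libraries (log2 fold change -0.34, SE 0.050, adjusted p = 6.46e-06), the largest decrease in the machinery apart from the uncertain ZNRD1. The other TFIIIC subunits were followed after their values had been seen. GTF3C4 (chr9:135545728-135565470), which bridges TFIIIC to TFIIIB and polymerase III, had 51.2, 51.3 and 53.7 CPM in the control libraries and 62.5, 66.7 and 63.4 CPM in the SMIP34 libraries (log2 fold change 0.30, SE 0.043, adjusted p = 4.49e-06). GTF3C2 (chr2:27548721-27579868), which joins GTF3C1 at the B box, had 68.5, 69.8 and 71.5 CPM in the control libraries and 60.9, 60.9 and 59.1 CPM in the SMIP34 libraries (log2 fold change -0.21, SE 0.040, adjusted p = 0.000145). All of these calls held in the 19 alternative settings. GTF3C3 and GTF3C5, subunits of the part that contacts the A box, had log2 fold changes of 0.075 and 0.053 that did not pass (adjusted p = 0.211 and 0.222). So of 6 TFIIIC subunits 2 rose, 2 fell and 2 did not pass. The promoters of the first 4 are among those printed above.

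GTF3A, the 5S-specific factor, had 127, 130.4 and 123 CPM in the control libraries and 117, 118 and 120.1 CPM in the SMIP34 libraries (log2 fold change -0.10, SE 0.034, adjusted p = 0.0194). It was the least firm of the factor calls, lost without control replicate 1 or 2 and without SMIP34 replicate 1 or 2 (adjusted p = 0.0538, 0.109, 0.0834 and 0.0647) and with length offsets (0.437). BRF1, the TFIIIB subunit for tRNA and 5S genes, had 56.0, 56.6 and 54.5 CPM in the control libraries and 50.7, 49.8 and 50.5 CPM in the SMIP34 libraries (log2 fold change -0.15, SE 0.043, adjusted p = 0.00841), and its call was lost with offsets for exon GC content (0.0687). BRF2, its counterpart at upstream-promoter genes such as U6, had 12.7, 13.3 and 12.7 CPM in the control libraries and 13.4, 12.9 and 15.0 CPM in the SMIP34 libraries, and the groups overlapped (log2 fold change 0.093, SE 0.084, adjusted p = 0.430).

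**Figure D3:**
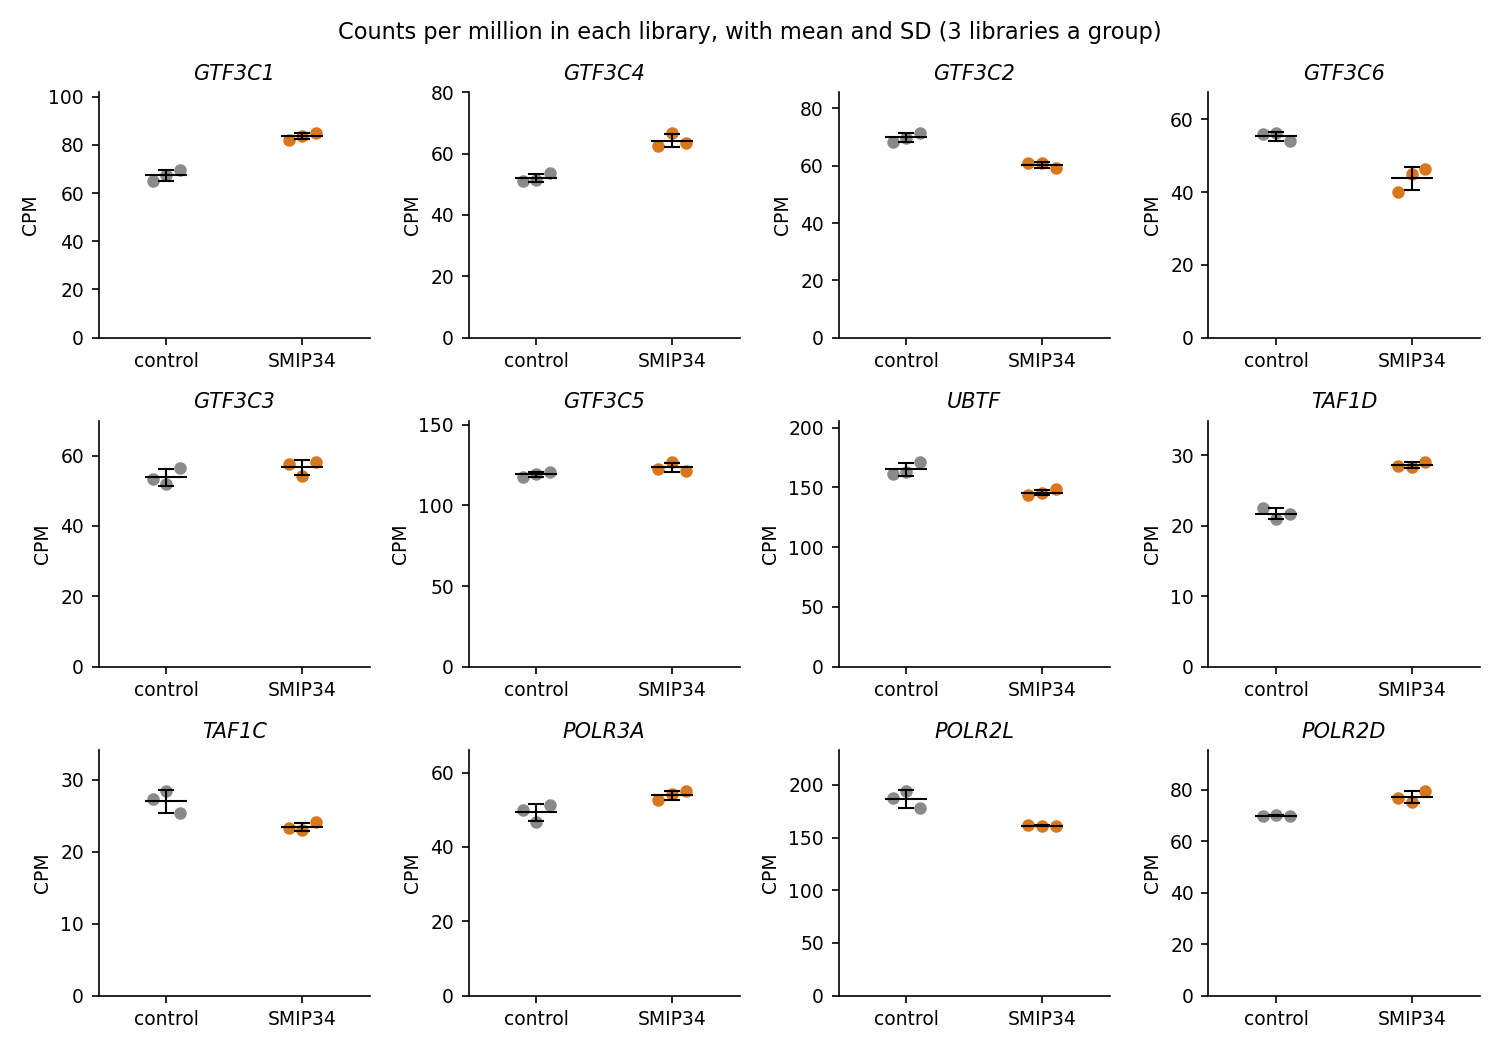
CPM of 12 genes in each of 3 control (grey) and 3 SMIP34 (orange) libraries, with the mean and SD as black bars and each vertical axis starting at 0. GTF3C1, GTF3C4, TAF1D, POLR3A and POLR2D lie higher and GTF3C2, GTF3C6, UBTF, TAF1C and POLR2L lower in every SMIP34 library than in any control library, whereas GTF3C3 overlaps and GTF3C5 does not but did not pass the test.

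Count ratios between TFIIIC subunits changed accordingly. In both TFIIIC pairs a gene called higher is set over a gene called lower, so the rise in the ratio follows from those calls. The ratio of GTF3C1 to GTF3C6 counts was 1.16, 1.20 and 1.29 in the control libraries and 2.05, 1.86 and 1.84 in the SMIP34 libraries. Exon length is 7107 bases for GTF3C1 and 950 for GTF3C6. With length offsets their log2 fold changes were 0.24 and -0.25, in place of 0.31 and -0.34. The ratio of GTF3C4 to GTF3C2 counts was 0.748, 0.735 and 0.751 in the control libraries and 1.03, 1.10 and 1.07 in the SMIP34 libraries. GTF3C2 reads outnumbered GTF3C4 reads in each control library, and the reverse held in each SMIP34 library. The ratio of BRF2 to BRF1 counts was 0.227, 0.236 and 0.233 in the control libraries and 0.265, 0.259 and 0.298 in the SMIP34 libraries, and that of POLR3G to POLR3GL was 0.327, 0.293 and 0.309 in the control libraries and 0.327, 0.399 and 0.370 in the SMIP34 libraries.

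Fold changes followed exon length across all genes. The median log2 fold change over all genes went from -0.10 among the shortest 10% of genes by exon length (median 872 bases) to 0.12 among the longest 10% (median 8625 bases). Between log2 length and log2 fold change, Pearson r was 0.17 and Spearman rho 0.29 over all 13408 genes, 0.35 and 0.40 over 32 subunits of the machinery (ZNRD1 left out), and 0.090 and -0.054 over the 15 factors. These are correlations across genes of the same libraries and are given as descriptions. The 7 subunits with under 1000 bases of exon were POLR2H, POLR2K, POLR2L, POLR2G, POLR2I, POLR2J and POLR3K. They had 6 values below 0, 3 of them called lower, and a median of -0.089. Of all genes 17.2% were called lower, and the shortest 10% had a median of -0.10. With offsets that take out the length trend of all genes, the median of these 7 became 0.002 and r over the 32 subunits -0.099. With the same offsets the machinery held 7 higher and 8 lower genes (16.6% and 14.9% of all genes), POLR1A, POLR3A, GTF3A, POLR2F, POLR2G and POLR2I were no longer called, and POLR2K, POLR3D and GTF3C5 were called higher. What part length has in these results was not tested.

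**Figure D4:**
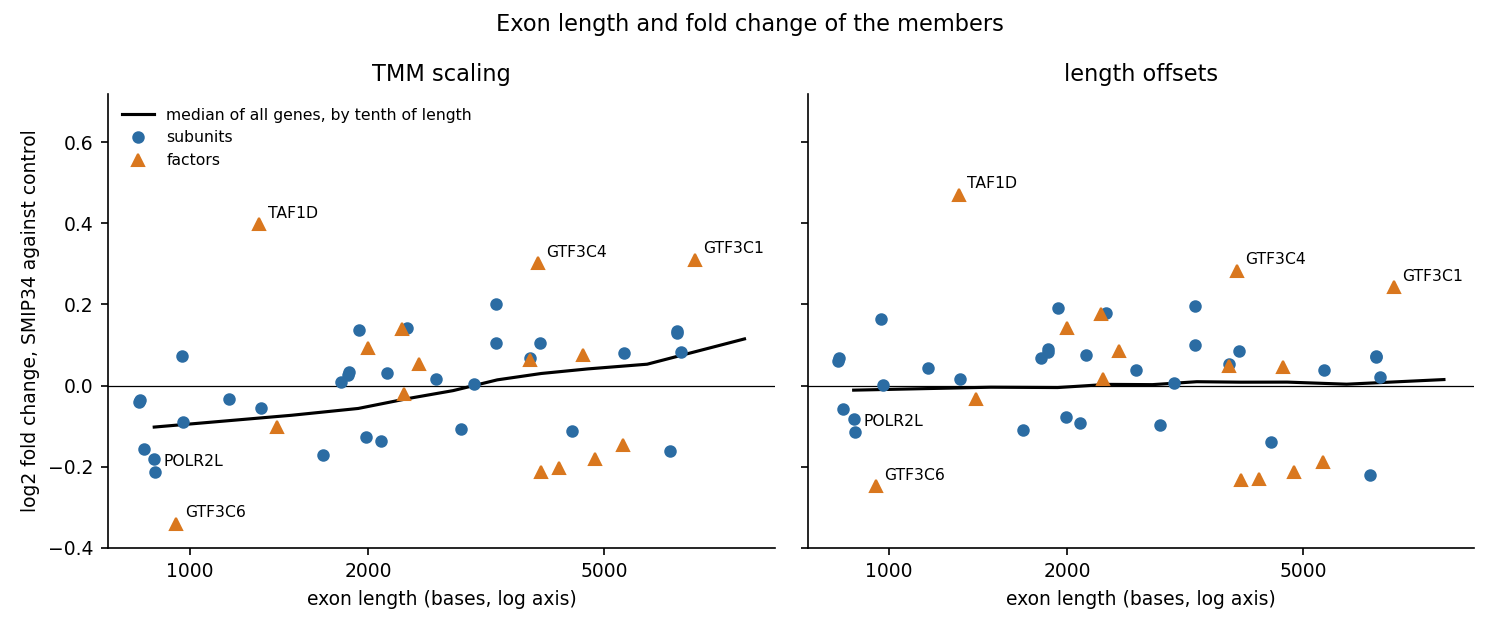
Log2 fold change against exon length in bases (log axis) for 31 subunits (blue circles) and 15 factors (orange triangles) with TMM scaling (left) and with length offsets (right), where the black line joins the medians of all genes in 10 equal classes of length. The line rises from -0.10 to 0.12 on the left and is nearly flat on the right, where TAF1D, GTF3C1 and GTF3C4 stay above it and GTF3C6 below.

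Genes that work with the machinery were followed as 8 further lists. Of 11 genes listed as partners of polymerase III, 6 were called, all higher (17.4% of all genes were higher), with a median log2 fold change of 0.12, and with length offsets the counts were the same. The list includes CRCP, itself a polymerase III subunit that the choice by symbol left out. CRCP was not called (log2 fold change -0.10, adjusted p = 0.0879). ZNF143 (0.37, adjusted p = 0.000199) and POU2F1 (0.35, adjusted p = 7.40e-05), which act at snRNA-type promoters, were the largest, followed by SNAPC3 (0.24, adjusted p = 0.00480), a subunit of the complex that binds the proximal sequence element. The SNAPC3 call was lost without control replicate 2 (adjusted p = 0.0530). BDP1, the third TFIIIB subunit, had 0.12 (adjusted p = 0.0324), which was lost in 9 of 19 alternative settings, among them length offsets (0.976) and DESeq2 (0.0915). MAF1, the repressor of polymerase III, had 127, 129.5 and 119.7 CPM in the control libraries and 118, 122 and 121 CPM in the SMIP34 libraries (log2 fold change -0.056, adjusted p = 0.223).

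For polymerase I, 2 of 5 partners and silencing genes were higher, BAZ2A (0.30, adjusted p = 3.22e-08) and SMARCA5 (0.13, adjusted p = 0.000771), the pair that forms the nucleolar remodelling complex which silences ribosomal DNA repeats. BAZ2A was called in all 19 alternative settings, and SMARCA5 was lost with length offsets. Over all genes 17.4% were higher and 17.2% lower. For polymerase II, 2 of 18 general initiation factors were higher and 2 lower, with GTF2F2 at 0.18 (adjusted p = 0.0111, 0.0782 without SMIP34 replicate 2), GTF2H3 at -0.19 (adjusted p = 0.00687, 0.0766 without SMIP34 replicate 1 and 0.0670 with length offsets) and GTF2H4 at -0.32 (adjusted p = 0.00587), the last annotated at 6 places and so uncertain. Of 15 TFIID subunits 4 were higher and 1 lower, led by TAF3 (0.34), TAF4B (0.28) and TAF10 (-0.21). Mediator, the coactivator that bridges activators to polymerase II, had 6 of 32 higher and 6 lower, led by MED12 (0.44), MED22 (-0.25) and MED27 (0.25). Of 32 genes of pausing and elongation 11 were higher and 5 lower, among them AFF4, the scaffold of the super elongation complex (0.33), and HEXIM2, an inhibitor of P-TEFb (-0.33), whereas HEXIM1 had -0.035 (adjusted p = 0.534). RDBP, a NELF subunit annotated at 6 places, had 0.876, 18.3 and 18.9 CPM in the control libraries and 1.64, 1.34 and 1.02 CPM in the SMIP34 libraries, so that its value of -3.28 rests on 2 of 3 control libraries and is uncertain.

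Of 12 polymerase assembly factors 3 were called, all lower (17.2% of all genes were lower), UXT (-0.18), PIH1D1 (-0.13) and RUVBL2 (-0.082), all 3 lost with length offsets, with which 1 of the 12 was higher. The RUVBL2 call was also lost without control replicate 2 (adjusted p = 0.219), without SMIP34 replicate 1, 2 or 3 (0.0985, 0.0557 and 0.103), with library size alone (0.0879) and with GC offsets (0.256). The mitochondrial list, whose polymerase POLRMT is a separate single-subunit enzyme, had POLRMT higher (0.15, adjusted p = 0.00216) and C17orf42, a mitochondrial elongation factor, lower (-0.22, adjusted p = 0.0321, lost with DESeq2 and with length offsets) of 5 genes.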

How the data were processed

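The authors deposited 1 table per library of estimated counts, made from 50-base single reads of stranded mRNA libraries aligned to hg19. Per the file headers, featureCounts 1.5.0-p1 assigned reads to RefSeq genes on the reverse strand (option 2) with a minimum mapping quality of 2 and divided reads that map to several places or overlap several genes, so that 6.31% to 7.43% of values are not whole. The submitters' processing notes name HISAT2, SAMtools and featureCounts, whereas the study's methods name tophat2 and HTSeq. Depth was 19562711 to 22014835 counts per library.

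Counts were rounded, filtered with filterByExpr, scaled by TMM and tested with edgeR 4.0.16 (quasi-likelihood, treatment only, Benjamini-Hochberg over all 13408 genes) in R 4.3.3, on 3 control and 3 SMIP34 libraries. The call was an adjusted p under 0.05. SE is the fold change divided by the root of F. The biological coefficient of variation was 3.03%. No 2 libraries agreed within sampling noise (chi-square per gene 1.89 to 3.26 within groups, 8.75 to 13.2 between). Alternatives were DESeq2 1.42.0, limma 3.58.1 voom, other scalings, no filter, a replicate block, loess offsets for exon length or GC content (span 0.3), and each library left out.

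The genes, their lists and the tests were chosen with earlier results of these data known. Named in full were the catalytic subunits, UBTF, RRN3, the POLR3G and BRF paralogs, the POLR2J copies, genes at several places, and in each role group the called gene with the largest rise and fall. Of each other list up to 3 called genes with the largest change were named, with MAF1, BDP1, TBP, HEXIM1 and PELP1. Promoters were taken from RefSeq. 1 of the 48 genes enters the counts, medians and sums but is not reported here.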

Additional observations from a re-analysis of the deposited data

How the results depend on the processing

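Of the 18 called genes of the machinery, 10 were called in all 19 alternative settings. Among them were POLR2E, POLR2L, POLR2D, UBTF, TAF1D, GTF3C1, GTF3C2, GTF3C4 and GTF3C6. Of the 30 other genes, 23 were called in none. The matching shares over all genes are not given here, so these counts cannot show whether the machinery was more or less stable than other genes. The median of the polymerase II subunits moved from -0.11 to -0.028 with length offsets, -0.027 with length offsets and the replicate block, -0.074 with GC offsets, -0.021 with length and GC offsets, and 0.010 with the POLR2J copies left out. That of the polymerase III subunits moved from 0.021 to 0.068 with length offsets, with or without the block. With GC offsets the polymerase I median was 0.062, and that of the polymerase III factors 0.027 (0.017 with length and GC offsets). GC offsets gave 10 higher genes in place of 6. The settings with GC content and without the copies were chosen after seeing the data. RUVBL2 and BDP1 changed sign with length and GC offsets (0.0014 and -0.0085), and the cause was not tested. Leaving out 1 library gave 3707 to 4647 genes called in all, 4 to 8 of the machinery higher and 9 to 13 lower, and medians of -0.12 to -0.089 for the shared subunits, 0.078 to 0.10 for polymerase I, -0.12 to -0.036 for polymerase II (the highest without control replicate 1), -0.005 to 0.049 for polymerase III, -0.012 to 0.075 for the polymerase I factors and 0.027 to 0.063 for the polymerase III factors (the lowest without SMIP34 replicate 3). The other medians stayed within 1 SD of the per-library medians of their group, and the other counts within 1.5 times the reported value. Within that SD, over all settings, the shared-subunit median ran from -0.12 to -0.069 and that of the polymerase I factors from -0.020 to 0.075 (below 0 with GC offsets and without SMIP34 replicate 2).

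The labels link samples of the 2 groups only by a replicate number. The deviations of same-numbered libraries correlated at -0.028, 0.033 and -0.011. With so few libraries this cannot settle whether same-numbered libraries were handled together. With the replicate block 4432 genes were called in place of 4645, and of the machinery 6 were higher and 13 lower, the added one being ZNRD1. Of genes with few counts, POLR3G and BRF2 had an SE of 0.12 and 0.084, against 0.028 for POLR2E.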
